A study of Mus musculus with 23 samples.

Results

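The 9 genes described here, Pf4, Ppbp, Tubb1, Vwf, F5, Gp6, Gp9, Itga2b and Itga2, are platelet and megakaryocyte genes, and they were picked by name from the 24421 genes of each of 2 expression tables. They were proposed with earlier results of these tables known, so their own differences between days are given as a description with no test. The libraries are poly-A RNA-seq of cells that the labels call MDSCs and immature myeloid cells, separated magnetically from mouse peripheral blood. Groups were labelled by tumour and day. B16 (a melanoma line) was followed in C57bl mice with 3 libraries at day 0, 2 at day 4, 3 at day 8 and 3 at day 11, and CT26 (a colon carcinoma line) in Balbc mice with 3 libraries at each of these 4 days. The labels give no age, sex or cell dose, and they do not say whether a library is 1 animal or a pool, so the spread between libraries may be partly technical. Each tumour table was normalized on its own, and no difference in level between them was tested.

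Platelets are shed by megakaryocytes and carry RNA inherited from them, since they have no nucleus. Their granules store chemokines and adhesive proteins, their marginal band is built from a lineage-restricted tubulin, and their surface carries glycoprotein receptors for collagen, von Willebrand factor and fibrinogen. Platelets readily bind to circulating myeloid cells, so that platelet RNA can accompany leukocytes in blood preparations, and several of these genes, F5 and Itga2 among them, are also known from other blood cells. In a bulk library, a change in the number of platelets or of cells expressing a gene and a change in RNA per cell cannot be told apart.

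Promoters are shown for a chemokine gene and 3 receptor genes that were high together in B16. They are Pf4 (chr5:90772185-90772484, plus strand), Gp6 (chr7:4397695-4397994, minus strand), Itga2b (chr11:102469834-102470133, minus strand) and Gp9 (chr6:87777820-87778119, plus strand). Each run holds 300 bases on the gene's own strand, from 250 before to 50 after the RefSeq start in GRCm38.p6, 5′ to 3′. Capitals mark matches, on either strand, to the GATA motif AGATAA, the ETS motif AGGAAG or CGGAAG, and the RUNX motif TGTGGT, which are motifs of factor families known in megakaryocytes.
Pf4: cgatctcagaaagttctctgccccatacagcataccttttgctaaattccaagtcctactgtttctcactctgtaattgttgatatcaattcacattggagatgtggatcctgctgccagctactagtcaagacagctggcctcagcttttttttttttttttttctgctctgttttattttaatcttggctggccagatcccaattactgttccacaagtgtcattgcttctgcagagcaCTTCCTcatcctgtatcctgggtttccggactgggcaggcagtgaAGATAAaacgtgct
Gp6: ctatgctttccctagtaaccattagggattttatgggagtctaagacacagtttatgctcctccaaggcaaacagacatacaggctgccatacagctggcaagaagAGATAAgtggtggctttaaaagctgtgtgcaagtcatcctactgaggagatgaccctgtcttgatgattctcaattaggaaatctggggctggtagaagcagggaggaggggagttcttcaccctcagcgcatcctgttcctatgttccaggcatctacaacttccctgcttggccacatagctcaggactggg
Itga2b: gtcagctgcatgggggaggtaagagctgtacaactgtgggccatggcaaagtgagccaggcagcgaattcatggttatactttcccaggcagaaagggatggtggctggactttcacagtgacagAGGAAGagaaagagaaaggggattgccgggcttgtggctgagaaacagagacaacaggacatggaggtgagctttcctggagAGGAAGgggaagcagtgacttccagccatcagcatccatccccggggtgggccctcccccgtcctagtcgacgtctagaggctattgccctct
Gp9: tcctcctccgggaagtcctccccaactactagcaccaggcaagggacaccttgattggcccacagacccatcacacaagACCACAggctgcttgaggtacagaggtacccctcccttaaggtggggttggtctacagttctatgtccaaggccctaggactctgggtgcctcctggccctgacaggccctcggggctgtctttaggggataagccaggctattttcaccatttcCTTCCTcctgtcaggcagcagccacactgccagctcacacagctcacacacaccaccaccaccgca
With the first transcribed base as 1 and no 0, the GATA match began at 37 in Pf4 and at -144 in Gp6, and the ETS matches at -9 in Pf4, -16 in Gp9, and -125 and -43 in Itga2b. The RUNX match of Gp9 began at -171. Of the 9 members, all but Vwf had a promoter in the RefSeq table. A GATA match was found in 2 of these 8, an ETS match in 5 and a RUNX match in 2, against 11.2%, 46.5% and 16.8% of all 32851 promoters of this length. The motifs share no overlap in these 4 runs. A match is a run of letters and shows no binding.

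The libraries held 12.39e6 to 15.03e6 normalized counts in B16 and 10.70e6 to 14.27e6 in CT26. Neutrophil marker genes made up 5.30% to 6.53% of a library in B16 and 4.97% to 7.24% in CT26, which goes with the labelled cell type. The 9 members together made up 0.0156% to 0.0575% of a B16 library at day 0, 0.195% and 0.546% at day 4, 0.201% to 0.435% at day 8 and 0.119% to 0.140% at day 11. In CT26 they made up 0.0410% to 0.0551% at day 0, 0.0324% to 0.0590% at day 4, 0.0247% to 0.0310% at day 8 and 0.0144% to 0.0242% at day 11. Some libraries stood apart in these genes. They were replicate 3 of B16 day 0, the day's highest for 8 of 9 members, replicate 1 of B16 day 4, the higher of its pair for all 9, and in CT26 replicate 1 of day 4 and replicate 1 of day 11. Endothelial cells also make Vwf, and the values of an endothelial marker list are given beside the B16 results. Rn45s, the ribosomal RNA precursor, took 2.57% to 3.10% of the B16 day 0 libraries and 0.427% to 1.05% of the later B16 libraries, and its part in the differences from day 0 was not tested.

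**Figure D1:**
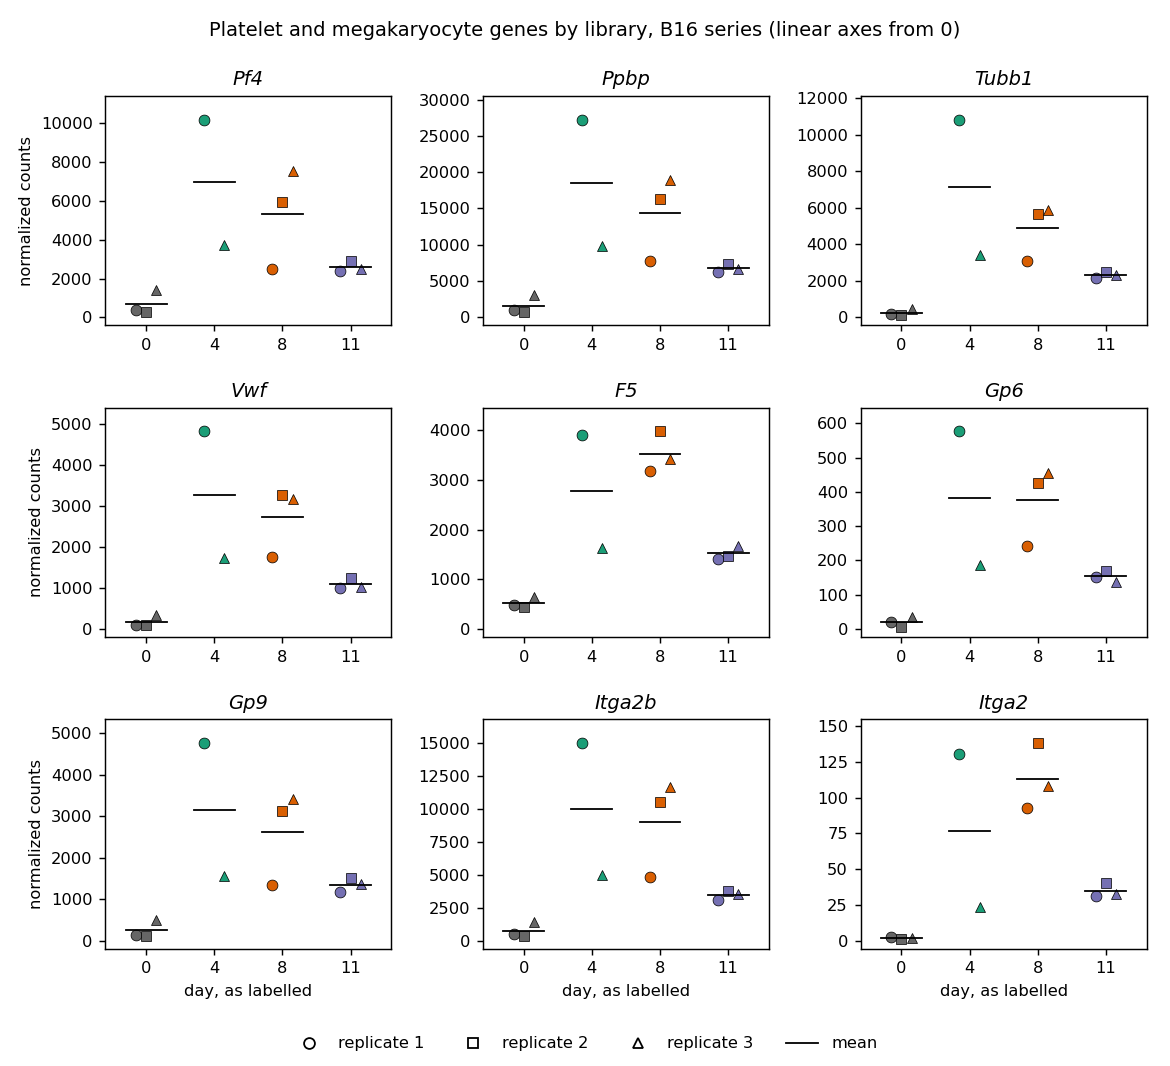
Normalized counts of the 9 members in each B16 library (vertical axes, linear) by labelled day (horizontal axis). Symbols are replicates and bars are day means; all libraries of days 4, 8 and 11 lie above all day 0 libraries in each panel, and replicate 1 of day 4 is well above replicate 3.

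In B16-bearing mice all 9 members were higher at days 4, 8 and 11 than at day 0, in every library. Their log2 fold changes ranged between 2.29 and 4.82 at day 4, between 2.77 and 5.31 at day 8 and between 1.56 and 3.65 at day 11, with medians of 3.77, 3.72 and 2.71 over the 9 genes, against medians over all genes tested of 0.01, -0.02 and -0.02. All 9 had an adjusted p under 0.05 at each day in limma, where 20.3% of the 11930 genes tested were called higher at day 4, 28.6% at day 8 and 23.9% at day 11. In either direction 35.8%, 56% and 45.7% were called. Nothing is read from those member calls, because the members were chosen on such contrasts.

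The chemokines of the alpha granule are secreted when platelets are activated. Pf4 (platelet factor 4; GRCm38 chromosome 5, 90772435 to 90773383, plus strand, 3 exons in its longest coding transcript) had 393, 274 and 1398 normalized counts at day 0, 10195 and 3713 at day 4, 2513, 5921 and 7534 at day 8, and 2408, 2899.9 and 2512 at day 11. Every later library lay above day 0, the 2 day 4 libraries lay above day 11, and day 8 overlapped both. The log2 fold change of Pf4 was 3.53 ± 0.62 at day 4 (standard error, 2 against 3 libraries), 3.18 ± 0.55 at day 8 and 2.29 ± 0.55 at day 11 (3 against 3). Ppbp (pro-platelet basic protein, the precursor of CXCL7; chromosome 5, 90768518 to 90770063, plus strand, 3 exons) lies 2371 bases upstream of Pf4. Ppbp had 958, 695 and 3093 normalized counts at day 0, 27249 and 9866 at day 4, 7808, 16374 and 18944 at day 8, and 6276, 7349 and 6709 at day 11. Days 4 and 8 overlapped and both lay above day 11. The log2 fold change of Ppbp was 3.69 ± 0.56 at day 4, 3.40 ± 0.50 at day 8 and 2.41 ± 0.50 at day 11. The ratio of Pf4 to Ppbp stayed within 0.322 and 0.452 over the 11 B16 libraries.

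Tubb1 (beta-1 tubulin of the marginal band; chromosome 2, 174450695 to 174457882, plus strand, 4 exons) had 197, 104 and 477 normalized counts at day 0, 10827 and 3401 at day 4, 3092, 5644 and 5865 at day 8, and 2172, 2505 and 2301 at day 11. Its log2 fold changes, 4.82 ± 0.55, 4.45 ± 0.49 and 3.44 ± 0.49, were above those of Ppbp at each day. The ratio of Tubb1 to Ppbp was 0.149 to 0.205 in the day 0 libraries and 0.310 to 0.397 in all later ones, so the 2 groups did not overlap.

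The adhesive and clotting proteins of the granule were likewise lowest at day 0. Vwf (von Willebrand factor, which bridges platelets to collagen; chromosome 6, 125546774 to 125686679, plus strand, 52 exons) had 96.6, 99.5 and 336 normalized counts at day 0, 4828 and 1728 at day 4, 1754, 3286 and 3167 at day 8, and 999, 1241 and 1037 at day 11. Day 11 lay above day 0 and below days 4 and 8, which overlapped. F5 (coagulation factor V, cofactor of the prothrombin-cleaving complex; chromosome 1, 164151838 to 164220277, plus strand, 25 exons) had 485, 441 and 644 at day 0, 3903 and 1639.6 at day 4, 3190.2, 3979 and 3433 at day 8, and 1414, 1479.6 and 1682 at day 11. Its day 4 libraries reached down into the day 11 range, and its day 8 libraries lay within 3190.2 and 3979. The log2 fold changes of Vwf were 4.28 ± 0.51, 4.15 ± 0.46 and 2.87 ± 0.46 at days 4, 8 and 11, and those of F5, the lowest of the 9 at each day, were 2.29 ± 0.27, 2.77 ± 0.24 and 1.56 ± 0.24. F5 overlaps the lincRNA gene Gm16548 on the other strand, and since the strandedness of the libraries is not given, their reads cannot be told apart.

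Among the receptors, Gp6 (glycoprotein VI, the collagen receptor that signals through Fcer1g; chromosome 7, 4363965 to 4397744, minus strand, 8 exons) had 21.0, 7.18 and 34.2 normalized counts at day 0, 576 and 186 at day 4, 244, 427 and 456 at day 8, and 153, 169 and 138 at day 11. Gp9 (glycoprotein IX of the receptor for von Willebrand factor; chromosome 6, 87778072 to 87779768, plus strand, 2 exons) had 135, 127 and 503 at day 0, 4755 and 1553 at day 4, 1333, 3116 and 3414 at day 8, and 1178, 1522 and 1359 at day 11. For both receptors no later library reached down to day 0. Itga2b (the alpha chain of the fibrinogen receptor; chromosome 11, 102453297 to 102470122, minus strand, 30 exons) had 487, 361 and 1455 at day 0, 14981 and 5024 at day 4, 4822, 10549 and 11633 at day 8, and 3063, 3774 and 3535 at day 11. Itga2 (the alpha chain of the collagen-binding integrin; chromosome 13, 114833081 to 114932100, minus strand, 30 exons) had 2.48, 1.03 and 2.21 at day 0, 130.3 and 23.6 at day 4, 92.5, 138 and 108 at day 8, and 31.1, 40.5 and 32.9 at day 11. The Itga2 values at day 0 are 5 reads in all, so the size of its difference is loose: the day 8 mean was 59.3 times the day 0 mean, with a 95% Poisson interval for the summed day 0 reads giving 25.4 to 183. The fitted log2 value of Itga2 depends on the pseudocount. The log2 fold changes at days 4, 8 and 11 were 4.15 ± 0.55, 4.29 ± 0.49 and 3.05 ± 0.49 for Gp6, 3.72 ± 0.59, 3.55 ± 0.52 and 2.71 ± 0.52 for Gp9, and 3.77 ± 0.56, 3.72 ± 0.50 and 2.44 ± 0.50 for Itga2b. Gp6 overlaps 2 miRNA genes (Gm25349 and Gm24752) and Itga2b a miscellaneous RNA gene (Gm23563), all on their own strands.

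Between days 8 and 4 the ranges of all 9 members overlapped, and the log2 differences ran from -0.38 to 0.98. None was called in limma, edgeR or DESeq2, and none had an unadjusted p under 0.05. Over all genes tested 26.7% were called. The day 4 values rest on 2 unlike libraries, so nothing is read from the missing member calls. Without replicate 1 of day 4 the log2 fold changes of the members ran from 1.66 to 3.99, and without replicate 3 from 2.92 to 5.66. Without replicate 3 of day 0 those of Pf4, Ppbp, Vwf, Gp9 and Itga2b at day 4 were 4.23, 4.33, 4.87, 4.36 and 4.37, and without replicate 2 of day 0 that of Gp6 was 3.56. The same was seen at the later days. Without replicate 3 of day 0 those 5 genes had 3.87, 4.04, 4.73, 4.20 and 4.32 at day 8 and 2.98, 3.05, 3.46, 3.35 and 3.04 at day 11, and Gp6 had 3.70 and 2.46 without replicate 2 of day 0. Between days 8 and 4, the log2 differences of Pf4, Ppbp, Tubb1, Vwf, Gp9 and Itga2b were all above 0 without replicate 1 of day 4 and all below 0 without replicate 3 of that day, so no direction is read from them. The erythroid genes moved with day 4 as well: Alas2 had 649 and 594 normalized counts at day 4 and 37.1 to 65.6 at day 0, and the erythroid list summed to 0.0048% and 0.0052% of a library at day 4 and to 0.00038% to 0.00066% at day 0. All 3 erythroid genes tested were called higher at day 4, against 20.3% of all genes tested, and their part in the result was not tested. The endothelial list was called higher for 3 of its 5 genes tested at day 4, against the same 20.3%. The filter on the mean passed 3 of 12 erythroid and 5 of 14 endothelial genes. A gene can pass it through later days alone, so neither count is read against that share. The endothelial list summed to 0.00080% and 0.0016% of a library at day 4 and to 0.00020% to 0.00042% at day 0. Of that list, Plvap had 103 and 43.7 normalized counts at day 4 and 1.03 to 13.2 at day 0, Tie1 35.8 and 9.604 at day 4 and 0 to 1.10 at day 0, and Kdr 41.3 and 33.2 at day 4 and 2.05 to 17.3 at day 0. Cdh5, Tek, Emcn and Cldn5 stayed at or below 7.34 in every B16 library. The part of this list was likewise not tested.

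**Figure D2:**
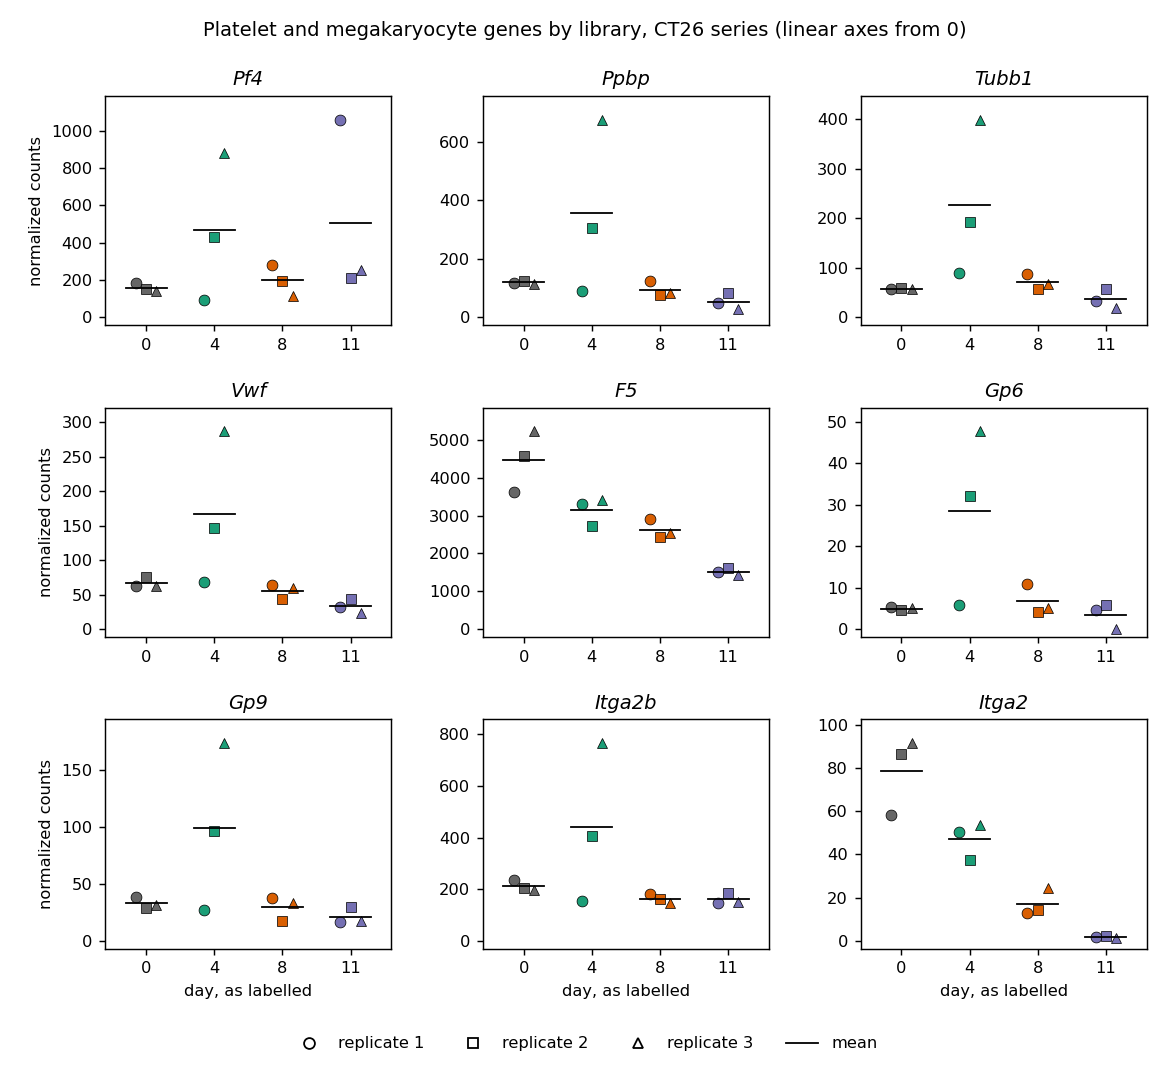
Normalized counts of the 9 members in each CT26 library (vertical axes, linear) by labelled day (horizontal axis), with replicates as symbols and day means as bars. Replicates 2 and 3 of day 4 are high for Pf4, Ppbp, Tubb1, Vwf, Gp6, Gp9 and Itga2b. F5 and Itga2 are lowest at day 11, and Pf4 is highest in replicate 1 of day 11.

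In CT26-bearing mice the members separated into 3 patterns. Ppbp, Tubb1, Vwf, Gp6, Gp9 and Itga2b had their highest values in 2 of the 3 day 4 libraries, F5 and Itga2 were lower at every later day than at day 0, and Pf4 had its highest library at day 11. Pf4 was also above its day 0 range in the same 2 day 4 libraries. The median log2 fold change of the 9 was 1.08 at day 4, -0.27 at day 8 and -0.83 at day 11, against medians over all genes tested of 0.02, -0.01 and -0.01. Called in limma were 1 member higher (Tubb1) and 1 lower (F5) at day 4, 2 lower (Itga2 and F5) at day 8, and 4 lower (Ppbp, Vwf, Itga2 and F5) at day 11. Of the 11373 genes tested, 6.4% were called higher and 4.46% lower at day 4, 11.8% lower at day 8 and 24% lower at day 11. Without replicate 1 of day 4 the day 4 calls were 379 higher and 247 lower, and without replicate 1 of day 11 they were 1419 and 1000, against 728 and 507 with all libraries. In either direction the shares were 10.9%, 26.9% and 50.3%, and nothing is read from the member calls.

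Pf4 had 181, 149 and 140.3 normalized counts at day 0, 92.7, 431 and 881 at day 4, 283, 196 and 116 at day 8, and 1059.9, 210.5 and 254 at day 11. Day 4 and day 8 overlapped day 0, and all day 11 libraries lay above it. Its log2 fold change was 1.07 ± 0.63 at day 4, 0.25 ± 0.63 at day 8 and 1.30 ± 0.63 at day 11 (standard error, 3 against 3 libraries), and the last was 0.56 without replicate 1 of day 11. Ppbp, its neighbour, had 117, 126 and 115 at day 0, 89.8, 305 and 676 at day 4, 125, 76.7 and 81.6 at day 8, and 48.7, 82.8 and 28.7 at day 11. All its day 11 libraries lay below day 0. Its log2 fold change was 1.15 ± 0.49 at day 4, -0.37 ± 0.49 at day 8 and -1.27 ± 0.49 at day 11. The 2 neighbours therefore lay on opposite sides of their day 0 range at day 11. The ratio of Pf4 to Ppbp was 21.8, 2.54 and 8.84 in the day 11 libraries, above the range of 1.19 to 1.55 at day 0.

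In replicate 1 of CT26 day 11, which had the highest Pf4, tissue macrophage genes were high too. C1qa, a complement component of macrophages, had 2237, 299 and 478 normalized counts in replicates 1, 2 and 3 of day 11, and Cd5l had 1712, 154 and 329. C1qa was listed at 0 in the 3 day 0 libraries. The macrophage list as a whole summed to 0.196% of replicate 1 and to 0.130% and 0.134% of the other day 11 libraries, against 0.137% to 0.151% at day 0, and 9 of its 11 genes tested were called higher at day 11. At day 8, where Pf4 overlapped day 0, 8 of the 11 were called higher, and the list summed to 0.143% to 0.151%. On both days 1 of the 11 was called lower. Over all genes tested, 26.3% were called higher at day 11 and 15.1% at day 8. C1qa, at 0 on day 0, passed the filter on the mean through later days only. Such genes favour higher calls, so the list counts are not read against these shares. Their part in the Pf4 values was not tested.

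Tubb1 had 57.5, 59.2 and 56.7 normalized counts at day 0, 88.8, 192 and 399 at day 4, 88.0, 57.3 and 67.3 at day 8, and 33.4, 56.4 and 18.4 at day 11. Every day 4 library was above and every day 11 library below day 0, and its log2 fold changes at days 4, 8 and 11 were 1.70 ± 0.41, 0.27 ± 0.41 and -0.80 ± 0.41. Vwf had 61.9, 75.6 and 62.7 at day 0, 67.8, 146 and 286 at day 4, 64.0, 44.0 and 59.2 at day 8, and 32.5, 43.7 and 23.0 at day 11. Day 4 overlapped day 0 through replicate 1, and day 11 lay below day 0, with log2 fold changes of 1.08 ± 0.36 at day 4 and -1.03 ± 0.36 at day 11.

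The glycoprotein receptors followed Tubb1 and Vwf at day 4. Gp6 had 5.31, 4.55 and 4.97 normalized counts at day 0, 5.73, 32.2 and 47.7 at day 4, 11.0, 4.09 and 5.10 at day 8, and 4.51, 5.75 and 0 at day 11. Gp6 rested on 4 to 6 reads in most CT26 libraries whose reads could be recovered, so small differences in Gp6 were not detectable at this depth. Replicate 1, the only day 4 library with recovered reads, held 6 of them, as did replicate 1 of day 0. Gp9 had 38.9, 29.1 and 31.8 at day 0, 26.7, 96.6 and 174 at day 4, 38.0, 17.4 and 33.7 at day 8, and 16.2, 29.9 and 17.2 at day 11. Itga2b had 234, 206 and 197 at day 0, 156, 405 and 766 at day 4, 179.9, 163 and 148 at day 8, and 147, 186 and 149 at day 11. The day 8 and day 11 ranges of Itga2b lay below day 0, whereas those of Gp9 overlapped it. Log2 fold changes at day 4 were 1.90 ± 0.73 for Gp6, 1.20 ± 0.48 for Gp9 and 0.78 ± 0.35 for Itga2b. Without replicate 1 of day 4 they were 2.76, 1.94 and 1.39, and those of Pf4 and Ppbp were 1.97 and 1.92. Without replicate 3 those of Pf4 and Ppbp were 0.36 and 0.47. With replicate 1 as the day's only library, on recovered reads in edgeR, the log2 fold changes of Pf4, Ppbp, Vwf, Gp9 and Itga2b were -0.86, -0.45, -0.04, -0.37 and -0.52. At day 11 that of Gp6 was -0.83 ± 0.73, and 0.04 without replicate 3.

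F5 and Itga2 lay below day 0 in every library of days 4, 8 and 11. At day 11 all libraries of Ppbp, Tubb1, Vwf and Itga2b lay below day 0 too. F5 had 3633, 4564 and 5227 normalized counts at day 0, 3309, 2739 and 3415 at day 4, 2901, 2427 and 2546 at day 8, and 1513, 1624 and 1429 at day 11. Its days followed each other downward, with day 8 overlapping day 4 only, and its log2 fold changes were -0.50 ± 0.12, -0.76 ± 0.12 and -1.54 ± 0.12. Itga2 had 58.4, 86.5 and 91.5 at day 0, 50.6, 37.2 and 53.7 at day 4, 12.99, 14.3 and 24.5 at day 8, and 1.80, 2.30 and 1.15 at day 11, with no overlap between any 2 neighbouring days. Its log2 fold changes were -0.72 ± 0.31 at day 4 and -2.15 ± 0.31 at day 8. At day 11 it was down to 5 reads in 3 libraries, and the day 0 mean was 44.99 times the day 11 mean (95% Poisson interval for the day 11 reads, 19.3 to 139).

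Markers of eosinophils and of B cells were lower on the same days in CT26. Over all genes tested there, 4.46%, 11.8% and 24% were called lower at days 4, 8 and 11. The B cell list summed to 0.0270% to 0.0285% of a library at day 0, 0.0092% to 0.0111% at day 4, 0.0104% to 0.0163% at day 8 and 0.0027% to 0.0061% at day 11, and 10, 8 and 10 of its 10 genes tested were called lower at days 4, 8 and 11. The eosinophil list summed to 0.102% to 0.114% of a library at day 0, 0.0455% to 0.0579% at day 4, 0.0310% to 0.0443% at day 8 and 0.0082% to 0.0247% at day 11, and of its 8 genes tested 6 were called lower at day 4 and all 8 at days 8 and 11. Ccr3, the eotaxin receptor, had 285, 170 and 209 normalized counts at day 11 and 2948, 2796 and 3012 at day 0, while the granule gene Epx stayed at or below 4.97 in every CT26 library. In B16 the eosinophil list was called higher for 5 of 6 genes tested at day 8. At days 4 and 11, 1 of the 6 was called higher and 1 lower. The B cell list in B16 had 4, 6 and 4 of 10 genes tested called lower at days 4, 8 and 11, and 1 higher at each day. Over all genes tested in B16, 20.3%, 28.6% and 23.9% were called higher and 15.5%, 27.3% and 21.8% lower. F5 and Itga2 were higher than at day 0 on all these days in B16. In CT26 the NK cell list summed to 0.00042% to 0.00056% of a library at day 0, 0.00064% to 0.00093% at day 8 and 3.4e-05% to 0.00010% at day 11. Of its 5 genes tested 3 were called lower at day 11, and 1 was called higher at day 8. The basophil and mast cell list there summed to 0.0857% to 0.0888% at day 0 and 0.169% to 0.190% at day 11. Of its 3 genes tested 2 were called higher and 1 lower at day 11. The part of these lists in the F5 and Itga2 values was not tested.

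**Figure D3:**
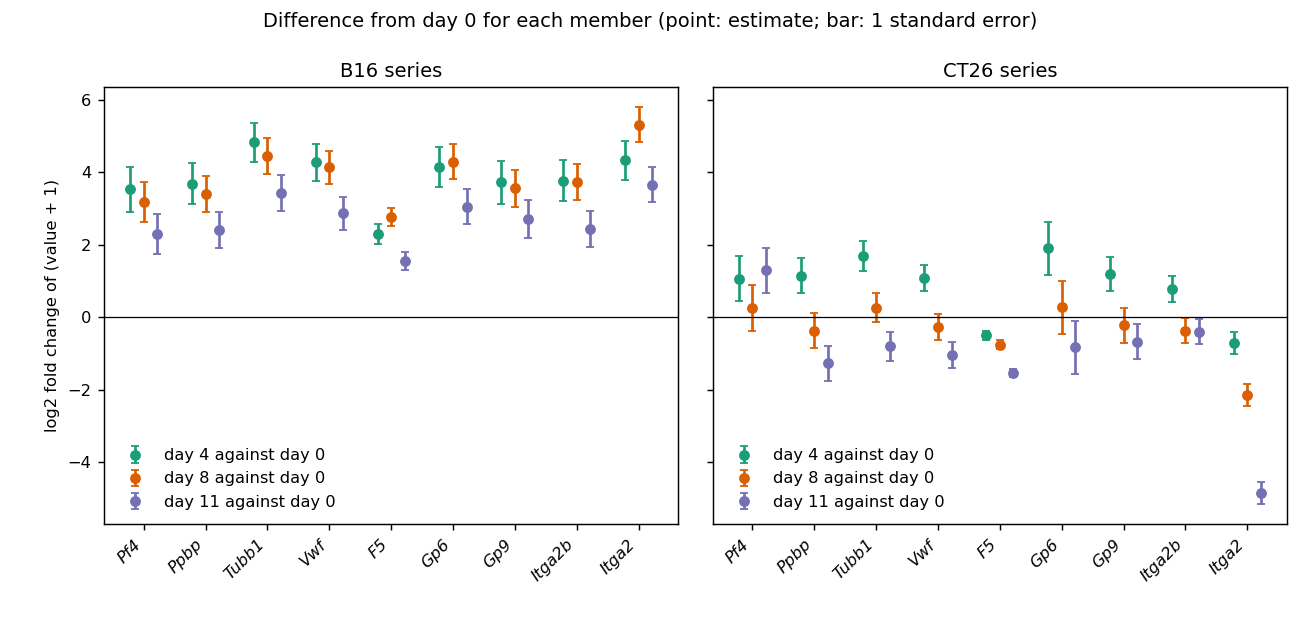
Log2 fold change of (normalized count + 1) for each member (points, vertical axis) with 1 standard error (bars), at days 4, 8 and 11 against day 0, in B16 (left) and CT26 (right). In B16 all points lie between 1.56 and 5.31; in CT26 they lie between -4.85 and 1.90, with Itga2 and F5 below 0 at all 3 days.

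Levels between genes were compared as CPM (counts scaled to library total) per kilobase of the longest coding transcript. In B16 at day 4 Ppbp stood at 1214 ± 793 and Pf4 at 838 ± 545, followed by Tubb1 at 358 ± 262, Gp9 at 254 ± 179.9 and Itga2b at 206 ± 143 (SD, n = 2). The ranges of each of these genes and the next in this order overlapped, while the range of Ppbp lay above those of Tubb1, Gp9 and Itga2b, and that of Pf4 above those of Gp9 and Itga2b. Within replicate 1 and within replicate 3 these genes kept this order. F5 at 26.4 ± 15.02, Vwf at 26.3 ± 17.3, Gp6 at 4.58 ± 3.27 and Itga2 at 0.766 ± 0.746 came last. In CT26 at day 0 the order opened with F5 at 56.0 ± 9.89, Pf4 at 24.8 ± 3.50 and Ppbp at 10.2 ± 0.454, followed by Itga2b at 5.75 ± 0.549, Tubb1 at 3.82 ± 0.0779, Gp9 at 3.52 ± 0.547, Itga2 at 1.03 ± 0.231, Vwf at 0.703 ± 0.0788 and Gp6 at 0.0780 ± 0.00624 (SD, n = 3). There the ranges of Tubb1 and Gp9 overlapped, and so did those of Itga2 and Vwf. The collagen integrin chain Itga2 had the lowest level of the 9 in B16 at day 4, and at CT26 day 0 Gp6 had.

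**Figure D4:**
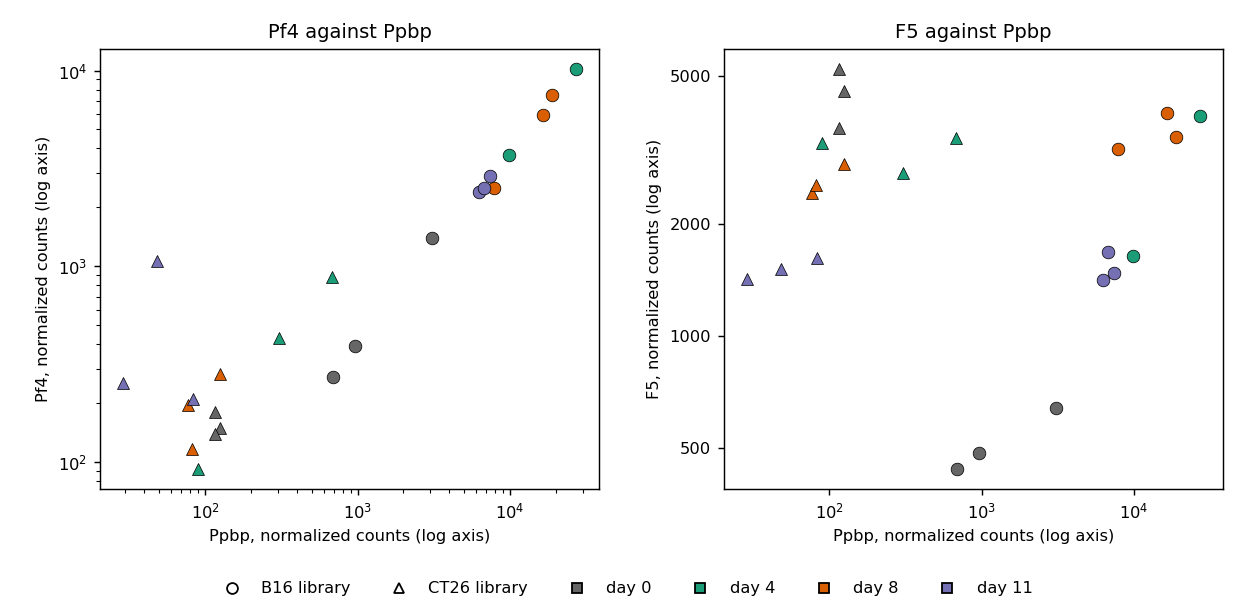
Normalized counts of Pf4 (left) and F5 (right) against those of Ppbp in all 23 libraries, on log axes; circles are B16, triangles CT26, colours are days. Pf4 follows Ppbp through the B16 libraries but not the CT26 day 11 libraries, and the ratio of F5 to Ppbp ran from 5.05 to 49.7 in CT26.

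How closely the members moved together was described by Pearson's r of log2 values over libraries, which share their day and their scaling. In B16 the 36 pairs had r between 0.906 and 0.998 (n = 11 libraries). In CT26 the 15 pairs among Ppbp, Tubb1, Vwf, Gp6, Gp9 and Itga2b had r between 0.82 and 0.99, and Itga2 with F5 had 0.96 (n = 12). Pf4 with the other 8 ran from -0.38 to 0.51, and Itga2 or F5 with the group of 6 from 0.33 to 0.67. The genes whose pattern was most like the mean of the 9 were Rab27b, Sh3bgrl2, Itga6, Mrvi1, Draxin and Acer2 in B16 (r of 0.997 to 0.999) and Tsc22d1, Sh3bgrl2, Nrgn, Ctla2a, Gng11 and Fhl1 in CT26 (r of 0.975 to 0.990). Chosen after the values were seen, the genes most like F5 in CT26 opened with Zbtb4, Ahr and Pdzd2 and held the eosinophil receptor Il5ra (r = 0.975). Those most like Itga2 held Itgb3 (r = 0.987), and the gene most like Pf4 was Itga6 (r = 0.885).

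The partner chains of the members did not all move with them. Itgb3, the beta chain that pairs with Itga2b, rose in B16 at day 4 (log2 fold change 2.07 ± 0.35, adjusted p = 0.000701 in limma) and at day 8 (1.65 ± 0.31, adjusted p = 0.000729), and at day 11 its value was 0.69 ± 0.31 (adjusted p = 0.0935). In CT26 Itgb3 fell at all 3 days, to 671 to 838 normalized counts at day 4, 348 to 398 at day 8 and 123 to 141 at day 11, against 1041 to 1089 at day 0. Its log2 fold change there was -2.98 ± 0.10 at day 11 (adjusted p = 3.07e-13 in limma), where Itga2b had -0.40 ± 0.35. Itgb3 also pairs with the alpha V chain in other cells. Itgb1, the broadly expressed partner of Itga2, rose in B16 at days 4, 8 and 11 (1.59 ± 0.27, 1.42 ± 0.24 and 0.70 ± 0.24, with limma adjusted p of 0.000724, 0.000318 and 0.0321). In CT26 Itgb1 was not called, and its log2 fold change at day 11 was 0.13 ± 0.14. Fcer1g, the signalling chain of the Gp6 complex and of Fc receptors on myeloid cells, fell in B16 at day 4 (-0.39 ± 0.06, adjusted p = 0.000488 in limma) and day 8 (-1.10 ± 0.06, adjusted p = 6.75e-08), when Gp6 was highest. Gp1ba, Gp1bb and Gp5, which form one receptor with Gp9, rose together in B16 at day 4 by 3.40 ± 0.45, 3.61 ± 0.66 and 4.04 ± 0.57 on the log2 scale (limma adjusted p of 0.000147, 0.00111 and 0.000209).

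Other platelet and megakaryocyte genes, 83 in 5 lists written from general knowledge, were tested over all genes in the same fits. In B16 the great majority rose. Of 80 tested, 65 were called higher and 4 lower at day 4, 66 and 5 at day 8, and 61 and 4 at day 11, against 20.3%, 28.6% and 23.9% higher and 15.5%, 27.3% and 21.8% lower over all genes tested. Their median log2 fold change was 2.09, 1.83 and 1.23. Between days 8 and 4, 4 were higher and 4 lower, against 12.7% and 14.1% of all genes tested. At day 4 each gene list except the transcription factors had at least 12 members called higher. These were 15 of 17 receptors (median 2.94), 12 of 16 granule cargo genes (median 3.31), 17 of 18 signalling genes (median 2.17) and 15 of 15 cytoskeletal genes (median 1.05).

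Among the receptors Ly6g6f, a platelet surface protein, rose by 4.14 ± 0.72 on the log2 scale (adjusted p = 0.000786 in limma). In the cargo list Angpt1, a ligand of the Tie2 receptor, rose by 4.05 ± 0.69 (adjusted p = 0.000749) and Rab27b, which serves granule secretion, by 3.97 ± 0.53 (adjusted p = 0.000147). Of the signalling genes Alox12, the platelet 12-lipoxygenase, had 11216 and 3574 normalized counts at day 4 and 179 to 967 at day 0, a log2 fold change of 4.07 ± 0.61 (adjusted p = 0.000297). Mrvi1, a target of cyclic GMP-dependent kinase, rose by 3.93 ± 0.51 (adjusted p = 0.000121). The cytoskeletal genes Parvb, an integrin-linked adaptor, and Myl9, a myosin light chain, rose by 3.95 ± 0.57 and 3.61 ± 0.62 (adjusted p = 0.000241 and 0.000707). No library of these genes at day 4 reached down to day 0. The sizes rest on unlike libraries, as for the members. Of the 69 related genes called at day 4, 37 had a fold moved by over 1.5 times without replicate 1 of day 4, 38 without replicate 3 and 18 without replicate 3 of day 0. Ly6g6f had a log2 fold change of 3.29 without replicate 1 of day 4, 4.98 without replicate 3 and 4.92 without replicate 3 of day 0. The median log2 fold change over the 69 was 2.32, and it was 1.73 without replicate 1 of day 4 and 2.84 without replicate 3.

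The transcription factors divided. At B16 day 4, 6 of 14 were called higher and 3 lower, with a median log2 fold change of 0.21. Over all genes tested 20.3% were called higher and 15.5% lower. Gata2, Gata1, Tal1 and Zfpm1, regulators of megakaryocyte and erythroid programmes, rose by 3.34 ± 0.65, 3.13 ± 0.57, 2.32 ± 0.31 and 2.19 ± 0.36 (limma adjusted p of 0.00167, 0.00114, 0.000156 and 0.000606). Among those that were lower, Lyl1 and Lmo2 had log2 fold changes of -0.47 ± 0.13 and -0.37 ± 0.10. The calls of both ended without some library. Gata2 is also on the basophil and mast cell list, and all 3 genes tested of that list were called higher at day 4. That list summed to 0.168% and 0.178% of a library at day 4 and to 0.114% to 0.155% at day 0. Its part in the Gata2 values was not tested. At day 8 the picture of the platelet and megakaryocyte lists was alike. Called higher were 15 of 17 receptors, 13 of 16 cargo genes, 17 of 18 signalling genes, 15 of 15 cytoskeletal genes and 6 of 14 transcription factors. Over all genes tested 28.6% were called higher at day 8 and 23.9% at day 11. At day 11 the counts were 14, 11, 15, 14 and 7 with lower medians, 1.88 for receptors and 1.91 for cargo. Gata1 then had a log2 fold change of 1.89 ± 0.51 (adjusted p = 0.00973 in limma). Mmrn1, a granule protein of platelets and endothelium, was listed at 0 in all 11 B16 libraries, while it had 9.02 to 110 normalized counts in the CT26 libraries.

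**Figure D5:**
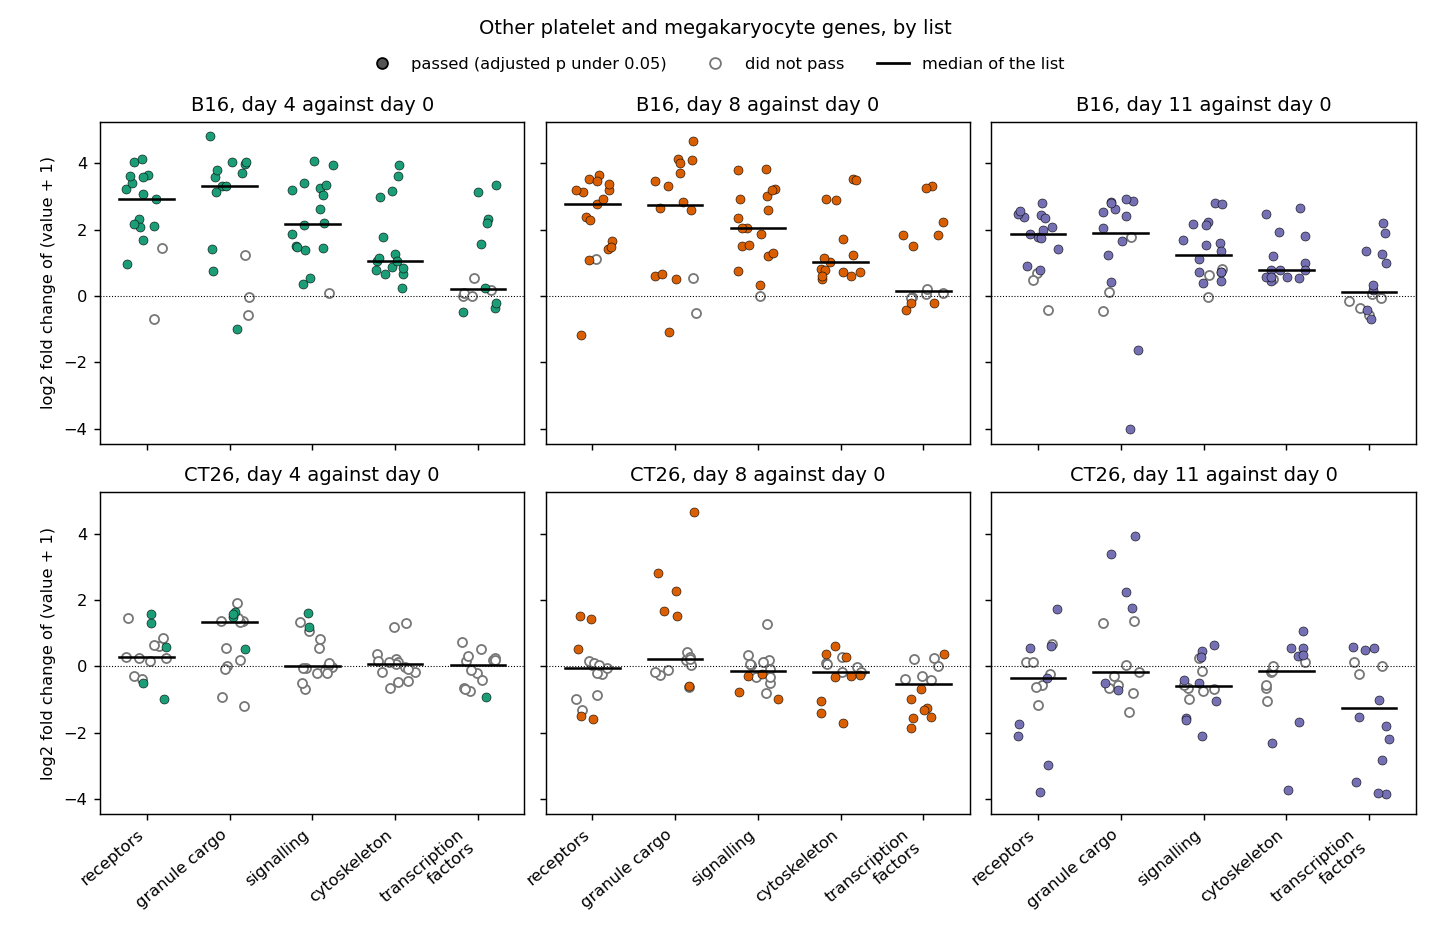
Log2 fold change of (normalized count + 1) (vertical axis) for the other platelet and megakaryocyte genes tested, by list (horizontal axis), at days 4, 8 and 11 against day 0 in B16 (upper row) and CT26 (lower row). Filled points have an adjusted p under 0.05 and bars are list medians; in B16 at day 4 the medians run from 0.21 to 3.31, and in CT26 at day 11 from -1.26 to -0.13.

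In CT26 most of these genes did not pass the test at days 4 and 8. Of 75 tested, 9 were called higher and 3 lower at day 4, 12 and 20 at day 8, and 18 and 24 at day 11, against 6.4%, 15.1% and 26.3% higher and 4.46%, 11.8% and 24% lower over all genes tested. The shares of the 75 lay near the background for lower calls at day 4 (4%) and for higher calls at days 8 (16%) and 11 (24%). At day 4 Treml1, a receptor of the alpha granule, rose by 1.58 ± 0.44 on the log2 scale (adjusted p = 0.0312 in limma), and Gp1bb, Clu, Alox12, Mmrn1, F13a1 and Pde5a were called higher as well. The calls of all these 7 genes ended without 1 or other library, and 4 of the 12 calls (those of Selp, P2ry12, P2rx1 and Itgb3) held whichever library was left out. Without replicate 1 of day 4 there were 17 higher calls, and without replicate 1 of day 11 there were 20. Without replicate 2 or 3 of day 4 or replicate 1 of day 0 there were 2, and without replicate 2 or 3 of day 0 there were 3.

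At CT26 day 8 genes of 4 of the 5 lists were called both ways. Over all genes tested 15.1% were called higher and 11.8% lower, and the shares of the receptors (20% and 13.3%) lay near these. The receptors had 3 called higher and 2 lower of 15, cargo 5 and 1 of 15, the cytoskeletal genes 3 and 6 of 15 and the transcription factors 1 and 7 of 14, and 4 of 16 signalling genes were lower. Lyl1, a partner of Lmo2 in blood progenitors, had a log2 fold change of -1.24 ± 0.09 (adjusted p = 1.78e-08 in limma), Gfi1b of -1.85 ± 0.28 (adjusted p = 8.44e-05) and P2rx1 of -1.59 ± 0.16 (adjusted p = 9.24e-07). Selp had 1.52 ± 0.10 (adjusted p = 7.28e-09).

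At CT26 day 11 the transcription factors stood out for the number that fell, 8 of 14, against 24% of all genes tested. Of the 14, 3 were called higher, against 26.3% of all genes tested, and their median log2 fold change was -1.26. Gata1 fell by 3.84 on the log2 scale (standard error 0.25, adjusted p = 1.65e-09 in limma), with 20.7, 9.20 and 20.7 normalized counts at day 11 and 259, 210.3 and 259 at day 0. Gfi1b, Meis1 and Zfpm1 had log2 fold changes of -3.81 ± 0.28, -3.48 ± 0.41 and -2.82 ± 0.34. Gata1 is also a regulator of eosinophils, whose markers fell on the same days as given above. In the receptor list the ATP-gated channel P2rx1 fell to 66.8, 39.1 and 50.6 normalized counts at day 11, against 679, 702 and 742 at day 0 (log2 fold change -3.77 ± 0.16, adjusted p = 6.84e-12 in limma). Mylk, the myosin light chain kinase, and Tuba8, a tubulin, had log2 fold changes of -3.73 ± 0.20 and -2.31 ± 0.13 (adjusted p = 2.6e-10 and 4.23e-10 in limma).

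Other members of the lists rose in CT26. Selp, the P-selectin of alpha granules and endothelium, had 788, 873 and 706 normalized counts at day 11 and 232, 212 and 255 at day 0, a log2 fold change of 1.76 ± 0.10 (adjusted p = 3.13e-10 in limma), and it was called higher at all 3 days. F13a1, the clotting factor XIII subunit that platelets and monocytes both make, rose by 3.39 ± 0.49 (adjusted p = 2.22e-05), with 1655, 205 and 366 at day 11 and 39.8 to 60.7 at day 0. Without replicate 1 of day 11 the log2 fold change of F13a1 was 2.53, and without replicate 2 it was 4.03. Its highest library was replicate 1, the one with the highest Pf4 and C1qa. Sparc was listed at 0 in all day 0 libraries and had 31.6, 14.95 and 5.75 normalized counts at day 11 (adjusted p = 0.00118 in limma). Sparc passed the filter on the mean through later days only, so its call is partly set by the filter. Between days 8 and 4, 5 of the 75 were called higher and 19 lower, against 7.42% and 5.96% of all genes tested (13.4% in either direction).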

How the data were processed

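Poly-A RNA-seq libraries of magnetically separated blood cells were analysed, 12 for CT26 and 11 for B16. Each tumour has 1 table of signal values that the authors deposited as normalized counts, per the file headers. Build mm10 and the tools DESeq2 1.6.3, HTSeq 0.6.1p1, TopHat2 2.0.10 and cutadapt are listed, with no roles, in the submitters' processing notes. The sources used here state neither the annotation nor the strandedness used for counting. In each library 100% of values were whole multiples of 1 step, within a tolerance of 0.001, and a second check of these steps accepted the recovered reads of 19 libraries. The other 4 (CT26 day 0 replicate 3, day 4 replicates 2 and 3, day 8 replicate 1) did not enter the count tests.

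limma 3.58.1 in R 4.3.3 was fitted with a variance trend to log2(value + 1), with a mean per day, 1 fit per table, for the 11373 CT26 and 11930 B16 genes that averaged 5 or more. Tests were 2-sided, with Benjamini-Hochberg adjustment over all these genes and a threshold of 0.05. All 9 members and 75 (CT26) or 80 (B16) of the 83 related genes passed the filter; 82 of the 83 are in the tables. A gene low on some days can pass this filter through the other days alone. A fold change is on the log2(value + 1) scale and understates low genes. Day 0 libraries are shared by all comparisons with day 0. p-values measure the spread between these libraries.

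The members and lists were chosen with earlier results of these data known. Named were all members, up to 4 called genes per list and comparison by size, partner chains, and the 6 most alike genes. Lyl1, Lmo2, the genes most like F5, Itga2 and Pf4, and the marker genes printed by name were picked after their values were seen. Some genes of the lists are counted but not reported here by name. Coordinates are GENCODE's on GRCm38. edgeR 4.0.16 and DESeq2 1.42.0 on recovered reads, other pseudocounts, filters and scaling, a replicate block and leaving out each library were the alternatives. Fits were tested on simulated data that gave every gene the same dispersion. Those data do not cover a spread as wide as that of Pf4 and Ppbp at B16 day 0. Poisson intervals (95%) cover counting error only.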

Additional observations from a re-analysis of the deposited data

Results flagged for a closer look

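The following values are log2 fold changes against day 0 in CT26, with the B16 value for the same gene and day beside each. In every case all CT26 libraries of the day lay below their day 0 mean and all B16 libraries above theirs. The difference between the tumours was not tested, since the tables were normalized separately and tumour and mouse strain cannot be told apart. Itga2 had -0.72 in CT26 and 4.33 in B16 at day 4, -2.15 and 5.31 at day 8, and -4.85 and 3.65 at day 11. For F5 the values were -0.50 and 2.29 at day 4, -0.76 and 2.77 at day 8, and -1.54 and 1.56 at day 11. Those of Vwf were -0.27 and 4.15 at day 8, and -1.03 and 2.87 at day 11. Itga2b had -0.38 and 3.72 at day 8, and -0.40 and 2.44 at day 11. At day 11 Ppbp had -1.27 and 2.41, Tubb1 had -0.80 and 3.44, and Gp9 had -0.67 and 2.71. Several of the CT26 values were not called in limma. These were Itga2 at day 4, Vwf at day 8, Itga2b at days 8 and 11, and Tubb1 and Gp9 at day 11. The CT26 ranges of Vwf at day 8 and of Gp9 at day 11 overlapped those of day 0.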

How the results depend on the processing

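No called fold change of a member turned direction under the alternatives run, while values of members near 0 or resting on unlike libraries did. In CT26 the edgeR and DESeq2 fits held 8 of 12 libraries and 1 at day 4, which was assumed to vary like the others. There DESeq2 gave log2 fold changes at day 4 of -0.83 for Pf4, -0.43 for Ppbp, -0.01 for Vwf, -0.34 for Gp9 and -0.49 for Itga2b, against 1.07, 1.15, 1.08, 1.20 and 0.78 over all libraries in limma, and 0.75 for Pf4 between days 8 and 4, against -0.81. The numbers that follow are related genes called, and the cause of each shift was not tested. At CT26 day 4 edgeR called 0 higher and 0 lower (9 and 3 in limma) and DESeq2 0 higher and 2 lower, with 3 higher and 5 lower at an unadjusted p under 0.05 in edgeR and 5 and 4 in DESeq2. At CT26 day 8 edgeR called 7 higher and 10 lower (12 and 20 in limma) and DESeq2 10 lower, and between days 8 and 4 edgeR called 2 and 5 (5 and 19 in limma) and DESeq2 3 and 5. Without the filter 2 were higher at CT26 day 4 and 2 lower at B16 day 4 (9 and 4 with it), and with a minimum mean of 20 there were 3 higher between CT26 days 8 and 4 (5 with a minimum of 5) and 3 lower at B16 day 8 (5). With all libraries brought to equal totals, 2 were higher and 6 lower at CT26 day 4, 3 lower at B16 day 8 (5 as deposited) and 1 lower between B16 days 8 and 4 (4). Both other pseudocounts left all 16 counts within 1.5 times.

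Leaving out 1 library at a time gave 2 to 20 higher and 2 to 9 lower calls at CT26 day 4, 8 to 16 and 16 to 22 at day 8, 14 to 19 and 20 to 29 at day 11, and 3 to 6 and 10 to 29 between days 8 and 4. In B16 it gave 55 to 67 and 0 to 4 at day 4, 64 to 67 and 2 to 5 at day 8, 54 to 63 and 3 to 4 at day 11, and 4 to 7 and 1 to 12 between days 8 and 4.

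Same-numbered libraries deviated together by correlations of -0.107 to 0.226 in B16 and -0.163 to 0.223 in CT26, so the replicate numbers were not taken to pair libraries. With the replicate number as a block 2 related genes were lower at B16 day 4 (4 without it), and the other 15 counts stayed within 1.5 times.

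Equal totals moved the median log2 fold change of all genes tested to -0.10 at CT26 day 4, -0.18 at CT26 day 8, -0.29 at CT26 day 11, 0.11 at B16 day 8, -0.15 at B16 day 11 and 0.14 between B16 days 8 and 4. The genes called higher and lower were then 481 and 788 at CT26 day 4 (728 and 507 as deposited), 1162 and 2771 at day 8 (1712 and 1344), 1716 and 4631 at day 11 (2990 and 2731) and 782 and 1162 between days 8 and 4 (844 and 678). In B16 they were 4087 and 2587 at day 8 (3415 and 3261), 2049 and 3559 at day 11 (2856 and 2595) and 2694 and 904 between days 8 and 4 (1510 and 1680). On recovered reads edgeR called 49 and 25 genes at CT26 day 4, 889 and 529 at day 8 and 180 and 108 between days 8 and 4, and DESeq2 159 and 60, 880 and 371, and 236 and 107, with 1298 lower at day 11. Leaving out 1 library moved other counts over all genes by over 1.5 times as well: 430 and 1059 were lower between CT26 days 8 and 4 without day 8 replicate 2 and without day 11 replicate 1 (678 with all), 1162 lower at B16 day 4 without its replicate 1 (1851), and 893 higher between B16 days 8 and 4 without day 4 replicate 3 (1510). Depth limits Gp6 in CT26 and Itga2 at CT26 day 11 and B16 day 0.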
